A study of Homo sapiens with 8 samples.

Results

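MHC class I and its peptide loading machinery were followed through 9 genes: the heavy chains HLA-B, HLA-C, HLA-E, HLA-F and HLA-G, the light chain B2M, the peptide transporter subunits TAP1 and TAP2, and the loading factor TAPBP. Every probe set whose gene symbol field in the platform annotation held 1 of these names was taken, which gave 28 probe sets of the 54613 that are no controls. The arrays measured total RNA of the human lung cancer line H460 (non-small-cell carcinoma), with 4 arrays from TRAIL-sensitive cells (H460S, labelled control) and 4 from cells that had become resistant to TRAIL (H460R) during 6 months of daily exposure to subtoxic amounts of it. TRAIL, a cytokine related to tumour necrosis factor, binds death receptors and can start apoptosis. All arrays share the 1 parental line and its growth in RPMI with serum. The labels name no clone, no parallel passage of the sensitive cells and no time between the last TRAIL exposure and RNA extraction, so resistance, exposure and 6 months of culture cannot be told apart. Whether each array came from its own culture is not given either, so every p-value here reflects only how far these arrays spread, and that spread may be technical.

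MHC class I molecules carry peptides from inside the cell to its surface, where T cells and natural killer cells read them. A heavy chain pairs with the light chain beta-2-microglobulin in the endoplasmic reticulum, the transporter TAP brings in peptides cut by the proteasome, and tapasin, the product of TAPBP, holds the empty heavy chain at the transporter until a peptide fits. HLA-B and HLA-C are classical, highly variable heavy chains, whereas HLA-E, HLA-F and HLA-G are less variable and serve mainly as ligands of inhibitory or activating receptors on natural killer and other immune cells. Class I promoters are known to be driven by the regulator NLRC5, by interferon regulatory factors, by NF-kB and by the RFX, CREB and NF-Y factors that bind their shared proximal module, and type I and type II interferons raise most genes of the pathway.

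The RefSeq sequences just upstream of 6 of these genes (assembly GRCh38.p14) are shown so that the bases before heavy chains that fell on their brightest probe set (HLA-B, HLA-C and HLA-F) can be set beside those of B2M, whose calls were less steady, and of the transporter genes TAP1 and TAP2. HLA-G, with 3 annotated starts, and TAPBP were searched in the same way and are given by their counts. HLA-E had no entry among the promoter sequences used and was not searched. Each is the 200 bases before the annotated transcript start, written 5′ to 3′ on the gene's own strand. Capitals mark matches on either strand to the letters AANNGAAA (a core of interferon regulatory factor elements), to GGG, any 2 bases, TT, any base and CC (an NF-kB core), CCAAT (the core read by NF-Y) and TGACG (a core read by CREB and ATF factors). HLA-B is at chr6:31357180-31357379 on the minus strand and HLA-C at chr6:31272093-31272292 on the minus strand. HLA-F lies at chr6:29723234-29723433 on the plus strand, and B2M at chr15:44711317-44711516 on the plus strand. TAP1 is at chr6:32853705-32853904 and TAP2 at chr6:32838740-32838939, both on the minus strand.
HLA-B: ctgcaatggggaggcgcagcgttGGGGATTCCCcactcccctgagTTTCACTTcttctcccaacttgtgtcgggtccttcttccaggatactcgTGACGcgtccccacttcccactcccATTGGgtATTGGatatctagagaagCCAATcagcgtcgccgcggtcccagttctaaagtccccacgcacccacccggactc
HLA-C: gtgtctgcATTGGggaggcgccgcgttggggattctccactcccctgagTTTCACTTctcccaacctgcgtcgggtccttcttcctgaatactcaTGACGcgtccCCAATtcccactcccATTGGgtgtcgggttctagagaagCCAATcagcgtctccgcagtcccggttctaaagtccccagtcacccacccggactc
HLA-F: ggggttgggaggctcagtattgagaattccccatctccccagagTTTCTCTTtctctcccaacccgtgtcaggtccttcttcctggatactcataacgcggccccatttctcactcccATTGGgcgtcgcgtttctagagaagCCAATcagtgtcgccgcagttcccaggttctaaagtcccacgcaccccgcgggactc
B2M: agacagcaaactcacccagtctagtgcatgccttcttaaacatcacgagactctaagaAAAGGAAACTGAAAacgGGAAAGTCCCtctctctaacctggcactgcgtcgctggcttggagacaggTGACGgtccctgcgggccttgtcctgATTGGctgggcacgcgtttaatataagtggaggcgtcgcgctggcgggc
TAP1: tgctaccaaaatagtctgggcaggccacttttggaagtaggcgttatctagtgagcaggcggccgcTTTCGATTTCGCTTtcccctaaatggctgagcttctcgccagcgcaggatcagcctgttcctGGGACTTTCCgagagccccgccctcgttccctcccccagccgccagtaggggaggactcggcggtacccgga
TAP2: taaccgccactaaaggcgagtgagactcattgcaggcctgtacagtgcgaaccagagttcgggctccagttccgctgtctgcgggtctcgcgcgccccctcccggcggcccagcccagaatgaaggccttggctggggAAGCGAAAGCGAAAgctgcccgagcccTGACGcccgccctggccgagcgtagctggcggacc

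Over the 250 bases upstream, HLA-B and HLA-C were 89.0% identical, HLA-B and HLA-F 80.4%, and HLA-C and HLA-F 78.2%. The same alignment gave 46.6% for HLA-B against B2M and 46.4% for HLA-B against TAP2. In these 250 bases HLA-B held 1 match to AANNGAAA, 1 to the NF-kB core, 3 to CCAAT and 1 to TGACG. HLA-C held 1, 0, 4 and 1 of them in the same order, and HLA-F 1, 0, 2 and 0. B2M had 2 AANNGAAA matches, which overlap each other, and 1 match to each of the other motifs. TAP1, at the first of its 2 annotated starts, had 2 overlapping AANNGAAA matches, 1 NF-kB match and 1 CCAAT match. TAP2 had 2 overlapping AANNGAAA matches, 1 TGACG match and neither of the other motifs. The HLA-G start most like the other heavy chains, 77.9% identical to HLA-C, held 1 CCAAT match and none of the other motifs, and its other starts held no match. TAPBP held 2 AANNGAAA matches and 1 NF-kB match. HLA-G fell on 2 of its 4 probe sets, whose probes may also bind RNA of other heavy chains, and TAPBP did not pass. Whether the counts go with the calls was not tested. Of 35116 promoters of the same length, 20.3% held AANNGAAA, 5.07% the NF-kB core, 32.0% CCAAT and 21.2% TGACG. A match describes letters only, and no binding was measured.

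In the resistant cells HLA-B and HLA-C fell on all 7 of their probe sets, and HLA-F and HLA-G on 2 of 3 and 2 of 4. HLA-E fell on 1 of 3 and B2M on 2 of 3, and these calls were lost in most fits with 1 array left out. TAP2 rose on 1 of 4 probe sets, and TAP1 and TAPBP did not pass. Of the 28 probe sets, 14 fell, 1 rose and 13 did not pass the test (19.5% of all probe sets passed), which was limma's moderated test across all 54613 probe sets with Benjamini-Hochberg adjustment and a threshold of 0.05. Among all probe sets 10.4% fell and 9.13% rose, and among the 11157 probe sets as bright as most members (a mean log2 level of at least 8) 44% passed, 21.3% lower and 22.6% higher. The 17 heavy chain probe sets gave 12 that fell and 0 that rose, with a median change of -0.62, B2M gave 2 of 3 that fell, and the 8 probe sets of TAP1, TAP2 and TAPBP gave 1 that rose and 0 that fell, with a median change of 0.21. That 1 of 8, or 12.5%, lies near the 9.13% of all probe sets that rose and below the 22.6% of the bright ones. The median change over all probe sets was -0.039. Levels and changes are on the scale of log2(signal + 1), a change is resistant minus sensitive, and an error on a change is its standard error.

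**Figure D1:**
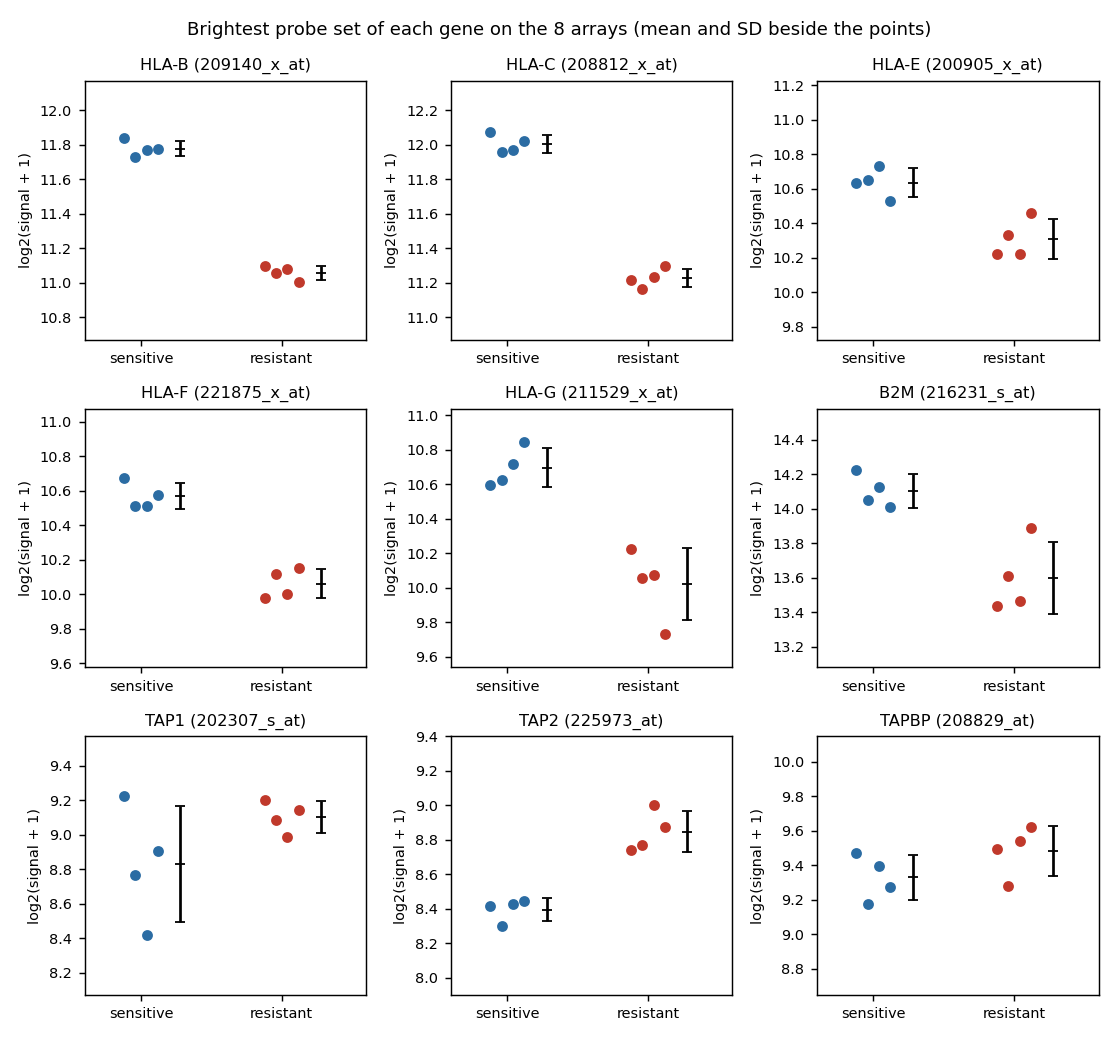
Level, as log2(signal + 1), of the brightest probe set of each of the 9 genes on the 4 sensitive and the 4 resistant arrays. Each point is 1 array, and the mark and whiskers beside the points give the mean and SD of a group. For HLA-B and HLA-C the groups are far apart against their spread, resistant array 4 stands above the other resistant arrays for B2M, and TAP2 is the gene with the resistant arrays above the sensitive ones.

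HLA-C and HLA-B, the classical heavy chains, fell on each of their 7 probe sets. The brightest HLA-C probe set, 208812_x_at, read 12.07, 11.96, 11.97 and 12.02 on sensitive arrays 1 to 4 and 11.22, 11.17, 11.23 and 11.29 on resistant arrays 1 to 4. The lowest sensitive array thus lay well above the highest resistant one. The change was -0.78 ± 0.08 (limma with Benjamini-Hochberg adjustment, adjusted p = 0.000939), and the signal was 41.6% lower, with group SDs of 0.05 and 0.05 (n = 4 each). The HLA-C probe sets 214459_x_at and 216526_x_at changed by -0.79 ± 0.08 and -0.77 ± 0.08. The dimmest HLA-C probe set, 211799_x_at, read 10.07, 10.21, 10.06 and 10.26 in the sensitive cells and 9.35, 9.25, 9.23 and 9.18 in the resistant cells. Its change of -0.90 ± 0.10 (adjusted p = 0.000875) was the largest in size among the 28 probe sets.

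For HLA-B the brightest probe set, 209140_x_at, read 11.84, 11.73, 11.77 and 11.78 on the sensitive arrays and 11.10, 11.05, 11.08 and 11.002 on the resistant arrays. Again the groups did not overlap. The change was -0.72 ± 0.08 (limma, adjusted p = 0.00113), a signal 39.3% lower. The probe set 211911_x_at read 11.53, 11.28, 11.33 and 11.38 against 10.69, 10.66, 10.63 and 10.80, a change of -0.68 ± 0.10 (adjusted p = 0.00293). For 208729_x_at the values were 11.22, 10.89, 11.03 and 11.16 against 10.52, 10.47, 10.41 and 10.51, a change of -0.60 ± 0.10 (adjusted p = 0.00700). The 3 HLA-B probe sets therefore spanned a narrow range of changes, from -0.72 to -0.60.

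All 7 of these probe sets, and 15 of the 17 for heavy chains, end in _x_at, the suffix Affymetrix gives to probe sets whose probes may also bind other, similar transcripts. Counts of heavy chain probe sets are therefore not counts of separate genes, and a signal named for HLA-B may hold RNA of another heavy chain. Of the 4207 probe sets on the array with this suffix, 8.99% fell and 8.65% rose. The 2 heavy chain probe sets without it are HLA-E 200904_at and the dim HLA-F 221978_at. With probe sets ending in _x_at, _s_at or _a_at left out of the limma fit, 0 of these 2 fell, and HLA-E 200904_at had an adjusted p of 0.0639 at the same change.

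The non-classical heavy chains gave 5 of 10 probe sets that fell and 0 that rose. HLA-F, which is also found as an open form without peptide, fell on both of its bright probe sets. Its 204806_x_at read 10.49, 10.44, 10.56 and 10.56 in the sensitive and 9.85, 9.83, 9.96 and 9.90 in the resistant cells, a change of -0.62 ± 0.09 (limma, adjusted p = 0.00253). The values of 221875_x_at were 10.68, 10.51, 10.51 and 10.57 against 9.98, 10.12, 10.00 and 10.15, a change of -0.51 ± 0.09 (adjusted p = 0.00856). On both, every sensitive array was above every resistant array. The dim HLA-F probe set, 221978_at, had means of 5.37 and 5.11, and changed by -0.26 ± 0.17 (adjusted p = 0.362).

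HLA-G, known chiefly from the placenta, where it restrains maternal natural killer cells, fell on 2 of its 4 probe sets. Its 211529_x_at read 10.60, 10.62, 10.72 and 10.84 against 10.23, 10.06, 10.07 and 9.73 (change -0.67 ± 0.13, limma adjusted p = 0.0111). The values of 211528_x_at were 10.68, 10.73, 10.53 and 10.69 against 10.24, 9.81, 10.13 and 9.90 (change -0.64 ± 0.12, adjusted p = 0.0111). The resistant arrays spread more widely here than for HLA-B or HLA-C, yet the groups did not overlap on either probe set. On 211530_x_at they did, since resistant array 3 read 9.62 beside 9.0, 8.56 and 9.05, against a sensitive range of 9.57 to 9.74. That probe set changed by -0.60 ± 0.21 (adjusted p = 0.0985), and without resistant array 3 the change was -0.79 (adjusted p = 0.0204). The last HLA-G probe set, 210514_x_at, changed by -0.41 ± 0.13 (adjusted p = 0.0650) with no overlap between groups. Its sensitive arrays ran from 8.77 to 9.29 and its resistant arrays from 8.57 to 8.71.

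HLA-E binds signal peptides of other class I heavy chains and shows them to the receptor NKG2A on natural killer cells. Its brightest probe set, 200905_x_at, read 10.63, 10.65, 10.73 and 10.53 in the sensitive cells and 10.22, 10.33, 10.22 and 10.46 in the resistant cells. The groups were separate by a narrow margin, and the change of -0.33 ± 0.10 (95% interval -0.56 to -0.09) had a limma adjusted p of 0.0610. For 217456_x_at the groups overlapped, since resistant array 4 read 9.44 and the sensitive arrays 9.26 to 9.32; the change was -0.18 ± 0.14 (95% interval -0.50 to 0.13, adjusted p = 0.421). The HLA-E 200904_at probe set fell: it read 8.35, 8.38, 8.41 and 8.81 against 8.15, 8.0, 7.97 and 7.81, a change of -0.50 ± 0.14 (adjusted p = 0.0429). Sensitive array 4 stands apart in it, and the call did not hold in any of the 8 fits that left out 1 array (adjusted p from 0.0580 to 0.100) or after median centring (-0.43, adjusted p = 0.127). After quantile normalization the call held (-0.47, limma adjusted p = 0.0466), and with the main fit counted this probe set passed in 5 of 16 fits.

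**Figure D2:**
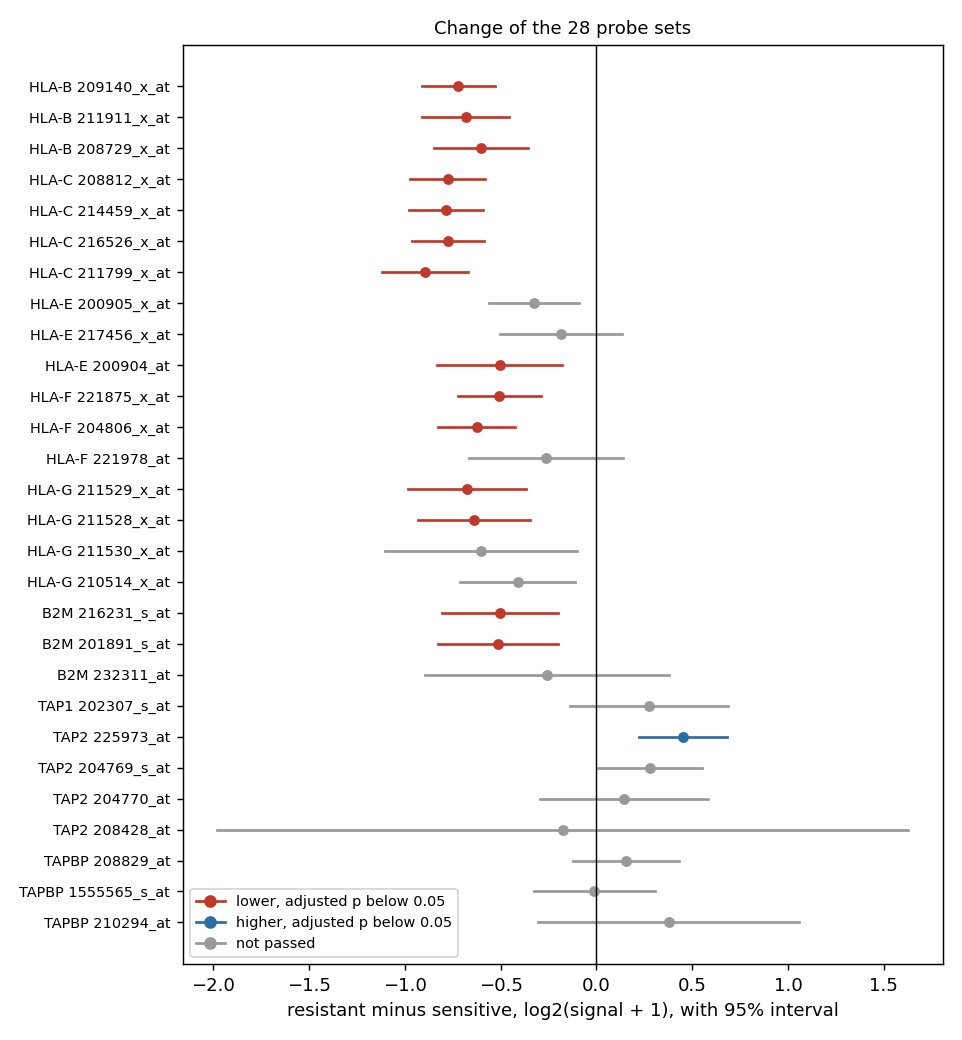
Change, resistant minus sensitive on the scale of log2(signal + 1), of all 28 probe sets with the 95% interval from limma, grouped by gene, in red (lower) and blue (higher) where the adjusted p was below 0.05 and grey otherwise. All 17 heavy chain estimates lie below 0, from -0.90 to -0.18, and those of TAP1 and most of TAP2 and TAPBP lie above it.

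B2M, the light chain shared by all class I molecules, was among the brightest transcripts of the cells, with 99.7% of probe sets dimmer than 216231_s_at. That probe set read 14.23, 14.05, 14.13 and 14.01 in the sensitive cells (mean 14.10 ± 0.10 SD, n = 4) and 13.43, 13.61, 13.46 and 13.89 in the resistant cells (mean 13.60 ± 0.21 SD, n = 4). The change was -0.50 ± 0.13 (limma, adjusted p = 0.0323). The second, 201891_s_at, read 14.07, 14.05, 13.99 and 13.97 against 13.38, 13.43, 13.37 and 13.86, a change of -0.51 ± 0.13 (adjusted p = 0.0336). Groups did not overlap on either, but resistant array 4 was far closer to the sensitive arrays than the other 3 resistant arrays were. The dim 232311_at, read 6.58, 7.24, 6.60 and 6.05 against 6.16, 6.83, 6.28 and 6.18, with overlap, and changed by -0.26 ± 0.27 (adjusted p = 0.593).

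The calls for B2M were less steady than those for HLA-B and HLA-C. Without resistant array 4 both bright probe sets passed, with changes of -0.60 (adjusted p = 0.0119) for 216231_s_at and of -0.63 (adjusted p = 0.00519) for 201891_s_at. Leaving out any of the other 7 arrays ended both calls, with adjusted p up to 0.0891 and 0.0919. The top of the brightness scale was also lower on average in the resistant arrays. The level below which 99.7% of an array's probe sets lie was 14.18, 13.96, 13.98 and 13.97 on the sensitive arrays and 13.57, 13.66, 13.52 and 14.05 on the resistant arrays. Resistant array 4 lay above sensitive arrays 2, 3 and 4, so here the groups overlapped, unlike those of the bright B2M probe sets. The difference between the group means of that level was -0.32, and its part in the change of B2M was not tested. After quantile normalization, which gives all arrays the same distribution, B2M changed by -0.17 (adjusted p = 0.203) on 216231_s_at and -0.22 (adjusted p = 0.109) on 201891_s_at, so neither passed. At the brightness of HLA-B, where 97.6% of probe sets lie below, the same level differed by -0.0028 between the groups, and all 7 HLA-B and HLA-C probe sets fell after quantile normalization too.

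TAP1 and TAP2 form the transporter that moves peptides into the endoplasmic reticulum. TAP2 rose on its brightest probe set, 225973_at, which read 8.41, 8.30, 8.43 and 8.44 in the sensitive cells and 8.74, 8.77, 9.0 and 8.88 in the resistant cells. The groups did not overlap, and the change was 0.45 ± 0.10 (limma, adjusted p = 0.0174), a signal 36.8% higher. Without resistant array 3 it was 0.40 (adjusted p = 0.0503). The next probe set, 204769_s_at, was also without overlap, at 7.92, 7.96, 7.68 and 7.60 against 8.12, 8.13, 8.0 and 8.02, with a change of 0.28 ± 0.12 (adjusted p = 0.151). The other two TAP2 probe sets changed by 0.15 ± 0.19 on 204770_at and by -0.18 ± 0.77 on 208428_at, whose level was near the floor of the scale, and neither passed.

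TAP1, on its only probe set 202307_s_at, read 9.23, 8.77, 8.42 and 8.91 in the sensitive and 9.21, 9.08, 8.99 and 9.14 in the resistant cells. The groups overlapped because sensitive array 1 was the highest of all 8, and the change of 0.27 ± 0.18 (95% interval -0.14 to 0.69) had a limma adjusted p of 0.348. TAPBP, on 208829_at, read 9.47, 9.17, 9.40 and 9.28 against 9.49, 9.28, 9.54 and 9.62, a change of 0.16 ± 0.12 (95% interval -0.12 to 0.43, adjusted p = 0.435). Its other probe sets changed by -0.01 ± 0.13 on 1555565_s_at and 0.38 ± 0.29 on 210294_at, and neither passed. The lower ends of the intervals for TAP1 and for TAPBP 208829_at were thus above the changes of every HLA-B and HLA-C probe set.

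Over all 28 probe sets, the groups did not overlap in 18, beside 26.4% of all probe sets. In 16 the sensitive arrays were above, against 13.9% of all probe sets, and 14 of those belong to heavy chains. In 2 the resistant arrays were above, both of TAP2, against 12.5% of all probe sets. Those shares are over probe sets of every level, whereas most members are bright. Differences pass more often among bright probe sets, 44% at a mean log2 level of at least 8 beside 19.5% of all in limma. The share without overlap was not counted at that level, so the excess among the members may be smaller. Among the 18 heavy chain and B2M probe sets with a mean level of at least 8, 14 fell; of the 2 dimmer ones 0 did.

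Whether 2 members changed by unequal amounts was tested on the difference between their brightest probe sets within each array, in 10 pairs, with an exact two-sided permutation test over the 70 assignments of 4 against 4 arrays. The smallest p this design allows is 0.0286. With the number of pairs that reached it here, it becomes 0.0571 after Benjamini-Hochberg adjustment over the 10 pairs, so no pair passed at 0.05. That smallest value was reached by TAP2, TAP1 and TAPBP against HLA-B, whose changes were 1.17 ± 0.07, 0.99 ± 0.16 and 0.88 ± 0.09 above that of HLA-B. It was also reached by HLA-E (0.39 ± 0.09 above HLA-B) and HLA-F (0.21 ± 0.06 above). HLA-C differed from HLA-B by -0.06 ± 0.04 (exact p = 0.229), HLA-G by 0.05 ± 0.11 (exact p = 0.629) and B2M by 0.22 ± 0.13 (exact p = 0.143). Within the TAP group, TAP2 differed from TAP1 by 0.18 ± 0.20 (exact p = 0.314) and TAPBP from TAP1 by -0.12 ± 0.18 (exact p = 0.657). After quantile normalization the change of B2M lay 0.57 above that of HLA-B, so B2M was lower by less.

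The transcripts whose pattern over the 8 arrays was most like that of HLA-B 209140_x_at were found by the root mean square difference of centred log2 values, among 22649 probe sets outside the 9 genes. The nearest were ZMIZ1 (0.0229), LMBRD2 (0.0273), GSAP (0.0353), STC2 (0.0382) and ECI1 (0.0425). The nearest member was HLA-C 216526_x_at, at 0.0489, with 12 probe sets outside the members nearer than it. With 8 arrays in 2 groups, this likeness rests largely on the size of the group difference. By the same measure TAP2 225973_at lay at 0.592.

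On chromosome 6 the members follow the order HLA-F, HLA-G, HLA-E, HLA-C, HLA-B, TAP2, TAP1, TAPBP, and B2M lies on chromosome 15. Between HLA-F and TAPBP, 125 other genes were measured by their brightest probe set with 1 symbol. Of these 15 fell, 12 rose and 98 did not pass, with a median change of -0.071, so 12% fell, beside 12.8% of all 19775 genes. Of the 20 measured genes next to HLA-C and HLA-B, 10 on each side, 3 fell and 2 rose. Of the 20 next to B2M, 2 fell and 3 rose. Among the other genes of this stretch that fell was HLA-J, a class I pseudogene named after its values were seen, with a change of -0.67 ± 0.09 (limma adjusted p = 0.00274).

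**Figure D3:**
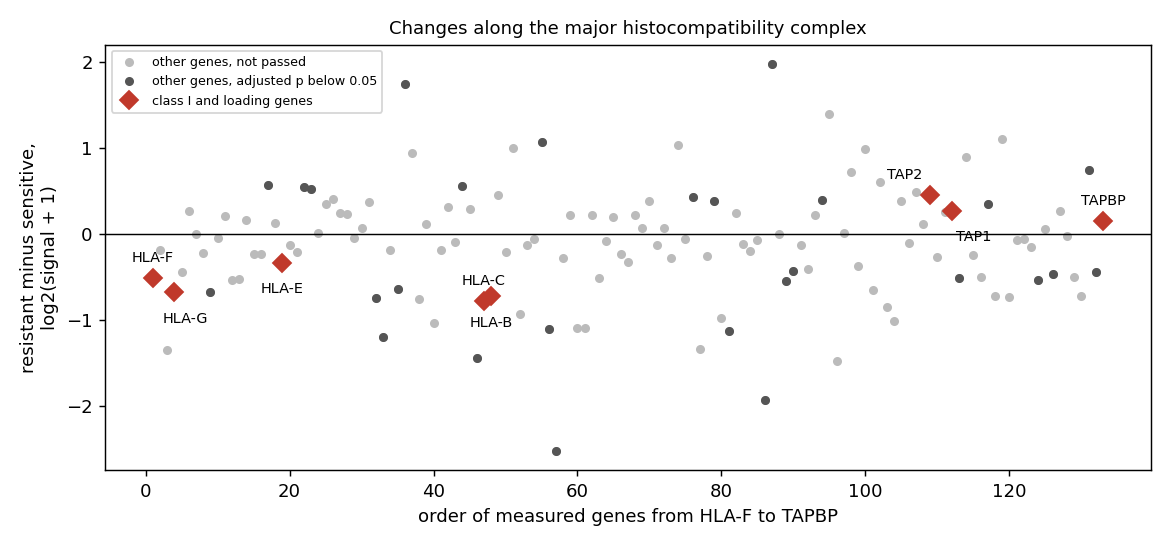
Change, resistant minus sensitive on the scale of log2(signal + 1), of the 133 genes measured from HLA-F to TAPBP on chromosome 6, in gene order, with the members named. HLA-F, HLA-G, HLA-C and HLA-B lie at -0.51, -0.67, -0.78 and -0.72, HLA-E at -0.33 did not pass, and most of the genes between them scatter around 0.

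The rest of the pathway was read from lists of known genes, each gene by its brightest probe set with 1 symbol, in the same limma fit. Of 55 measured genes, 17 passed, 9 higher and 8 lower, where 24.9% of all genes passed, 12.1% higher and 12.8% lower; the median change over all genes was -0.035. Among 7 genes of peptide loading and trimming, 1 rose, 0 fell and the median change was -0.086. The one that rose was CALR, the chaperone calreticulin of the loading complex, at 0.47 ± 0.11 (adjusted p = 0.0210). Without sensitive array 2, sensitive array 4 or resistant array 3 it did not pass (adjusted p up to 0.0559). ERAP1, which trims peptides in the endoplasmic reticulum and is named after its values were seen, changed by 0.50 ± 0.16 (adjusted p = 0.0727).

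The immunoproteasome, whose inducible subunits replace constitutive ones and favour peptides that fit class I, moved in both directions. Of its 4 measured genes, PSMB10 rose by 0.63 ± 0.10 (limma adjusted p = 0.00448), PSMB9, whose gene lies beside TAP1, fell by 0.50 ± 0.11 (adjusted p = 0.0149), and 2 did not pass. The median change was -0.27. Of the 3 constitutive counterparts, 1 rose, PSMB5, at 0.41 ± 0.08 (adjusted p = 0.0106), and the median change was 0.051.

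Among 12 measured regulators of class I transcription, 2 rose, 4 fell and 6 did not pass, with a median change of 0.0015. NLRC5, the main activator of class I promoters, was higher: its level was 6.54 ± 0.19 (SD, n = 4) in the sensitive and 7.26 ± 0.19 in the resistant cells, a change of 0.72 ± 0.14 (limma adjusted p = 0.0123), opposite in sign to the heavy chains. RFXANK, a subunit of the RFX complex, rose by 0.97 ± 0.20 (adjusted p = 0.0130), whereas RFX5, its DNA-binding partner, changed by 0.14 ± 0.10 (adjusted p = 0.420). The NF-kB subunits RELA and NFKB1 fell, with changes of -0.67 ± 0.11 (adjusted p = 0.00547) and -0.57 ± 0.10 (adjusted p = 0.00741). The other genes that fell, named after their values were seen, were IRF2, with a change of -0.43 ± 0.08, and CREB1, with -0.41 ± 0.11 (adjusted p = 0.0421, up to 0.109 with 1 array left out). IRF1, an interferon-induced activator of class I genes, changed by 0.14 ± 0.11 (adjusted p = 0.469). IFNB1, interferon beta, was dim in both groups, with means of 5.15 and 1.21, and fell by 3.94 ± 0.25 (adjusted p = 0.000113), a size that at such levels depends on the pseudocount: with a pseudocount of 16 the change was -1.54.

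**Figure D4:**
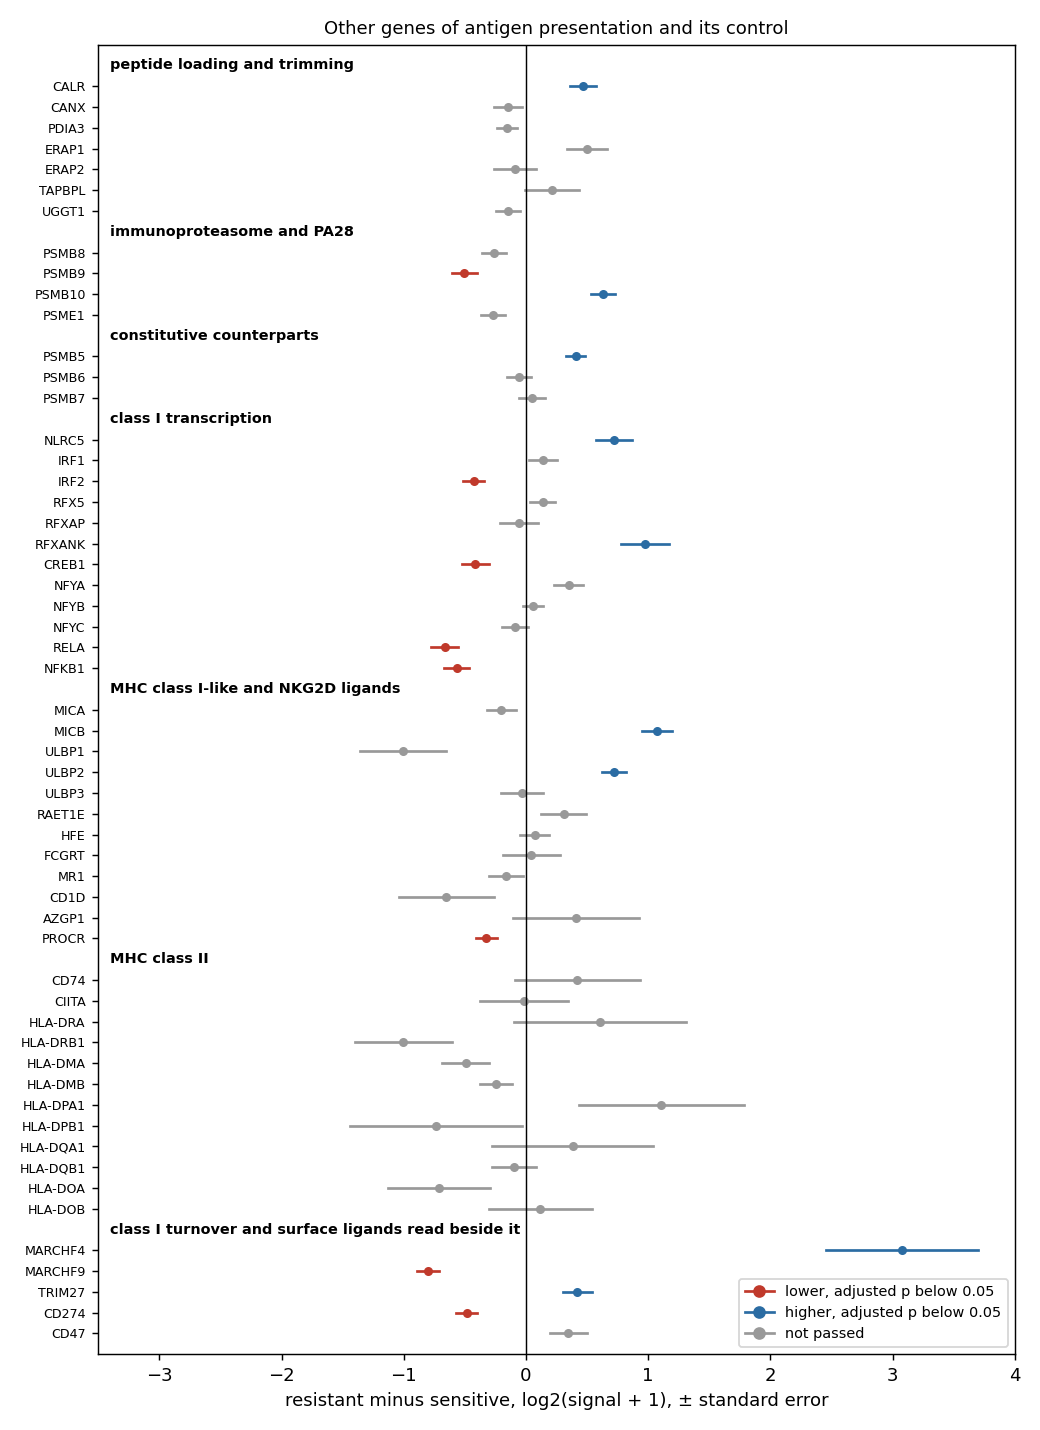
Change, resistant minus sensitive on the scale of log2(signal + 1), with its standard error from limma, of the 55 measured genes of the pathway lists, by list, in red (lower) and blue (higher) where the adjusted p was below 0.05 and grey otherwise. The largest change is MARCHF4 at 3.08, none of the class II genes passed, and each of the other lists has at least 1 gene that passed.

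Of 12 measured class I-like molecules and ligands of the activating receptor NKG2D, 2 rose, 1 fell and 9 did not pass, with a median change of 0.0050. The NKG2D ligands MICB and ULBP2 rose, by 1.07 ± 0.12 (limma adjusted p = 0.00113) and 0.72 ± 0.10 (adjusted p = 0.00269). PROCR, a class I-like receptor of protein C, fell by 0.33 ± 0.09 (adjusted p = 0.0367), and the call was lost in each fit with 1 array left out (adjusted p from 0.0633 to 0.0985). MHC class II gave 0 of 12 genes that passed in limma, and 2 had an unadjusted p below 0.05, HLA-DMA at -0.49 ± 0.19 and HLA-DRB1 at -1.0 ± 0.39. Of the class II genes 9 lay below the level of the median probe set, 5.01, so changes there were poorly measured.

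Of 5 measured genes of class I turnover and of surface ligands read beside it, 2 rose and 2 fell, with a median change of 0.35. The ligase MARCHF9, which can remove class I from the surface, fell by 0.80 ± 0.09 (limma adjusted p = 0.00106). Its relative MARCHF4 rose by 3.08 ± 0.62 (adjusted p = 0.0128) from a dim and uneven level of 4.01 ± 1.35 (SD, n = 4) to 7.09 ± 0.20. CD274, the inhibitory ligand PD-L1, fell by 0.49 ± 0.09 (adjusted p = 0.00785). TRIM27 rose by 0.42 ± 0.12 (adjusted p = 0.0445, up to 0.112 with 1 array left out).

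Markers of the cell type and of other cells were read on the same arrays. The keratins KRT8, KRT18 and KRT19 were bright, with sensitive means of 11.41, 13.18 and 12.52, whereas EPCAM at 4.40 and CDH1 at 2.43 lay below the median probe set. Of these 5 epithelial markers KRT19 fell (change -1.24 ± 0.11 limma adjusted p = 0.000389), and the summed log2 level was 42.7 to 45.4 in the sensitive and 41.0 to 43.4 in the resistant arrays. None of 9 leukocyte markers passed in limma, with 0 at an unadjusted p below 0.05; 8 of them, all but CD14, lay below the median probe set, and their summed level was 31.3 to 36.9 and 31.8 to 36.3. Of 6 fibroblast markers LUM and PDGFRB, both dim, fell, with changes of -3.27 ± 0.54 and -1.12 ± 0.26, and 4 did not pass. The brightest of the 6, COL3A1, had means of 9.96 and 9.95, a change of -0.01 ± 0.09 (limma adjusted p = 0.946). The summed level was 34.9 to 40.6 in the sensitive and 31.2 to 34.5 in the resistant arrays. The part of these differences in the class I results was not tested.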

How the data were processed

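The authors deposited linear intensity values of 54675 probe sets on 8 arrays, 62 of them controls. Per the submitters' processing notes RMA was used; its version is not stated. The deposited intensity values lie below 1 in places and, after trimming 2% at each end, average 200 on all arrays, which is not the form of RMA values, so the summarisation step is not settled. Values were taken as log2(signal + 1) with no further scaling, which understates changes of dim genes. The test between groups was limma's (version 3.58.1 under R 4.3.3, lmFit with eBayes), adjusted by Benjamini-Hochberg over all probe sets without controls. The platform annotation named 41091 probe sets with 1 symbol and 1801 with several, and 11721 were unlisted there. RefSeq (GRCh38.p14) matched the symbol of 41037 probe sets and gave gene order and promoters, aligned with Biopython 1.88. Exact tests used SciPy 1.17.1. The members and lists were chosen with earlier results of these data known. Every member could be named, up to 4 passing genes with the largest change per list (or the 2 with the smallest p), NLRC5, IRF1, RFX5 and IFNB1, and the 5 nearest patterns. The fit was tested on simulated data. Alternatives covered normalization, pseudocount, variance model, replicate block, dim probe sets or those ending in _x_at, _s_at or _a_at, the gene's probe sets and each array left out. The number of arrays and, for dim probe sets, the signal limit the precision.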

Additional observations from a re-analysis of the deposited data

Results flagged for a closer look

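In each of the 56 groups of 4 values (28 probe sets in 2 groups), the gap between the highest or lowest array and its neighbour was divided by the range of the group, and 2 passed Dixon's 95% critical value. Chance gives such a value in about 5% of groups. For HLA-E 200904_at, sensitive array 4 was the highest of its group at 8.81, with the next at 8.41 (ratio 0.886). For B2M 201891_s_at, resistant array 4 was the highest of its group at 13.86, with the next at 13.43 (ratio 0.883).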

How the results depend on the processing

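With the replicate number as a block, 7 of the members passed, all 7 of them heavy chain probe sets that fell, with 0 of B2M falling and 0 of TAP1, TAP2 and TAPBP rising; 7 list genes passed, and 5062 probe sets in all, 2872 lower and 2190 higher. Deviations of same-numbered arrays correlated at -0.052, 0.099, 0.030 and -0.094 for numbers 1 to 4. The highest correlation with a resistant array of another number was 0.154, 0.016, -0.0050 and 0.090. The same number thus gave the higher value for 2 and 3, and another number for 1 and 4. Correlations this weak cannot decide whether the numbers pair the arrays. Without probe sets ending in _x_at, _s_at or _a_at, which leaves out 20 of the 28 members, 1 member passed (TAP2 225973_at), with 0 heavy chain and 0 B2M probe sets lower. The share of all probe sets that passed in this fit was not counted, so the 1 is no result about the members. This fit leaves out both bright B2M probe sets and the only TAP1 probe set, so it does not bear on them. After quantile normalization 0 B2M probe sets fell, and 6 differences from HLA-B passed (exact permutation test, adjusted p = 0.0476): HLA-E 0.38, HLA-F 0.20, B2M 0.57, TAP1 1.02, TAP2 1.21 and TAPBP 0.89. All 6 stood at the smallest exact p this design allows. The adjusted p of that smallest value fell from 0.0571 only because more of the 10 pairs reached it. With probe sets dimmer than the median left out, 27307 were tested and 13346 passed, 6380 of them higher and 6966 lower. Of the members 19 passed: 15 heavy chain and 2 B2M probe sets fell, and 2 of the TAP group rose. More probe sets passed here, of fewer tested, than in the main fit, so the 2 are no result about the TAP group. ERAP2 changed by 0.67 (adjusted p = 0.0429) by the mean of its probe sets and by -0.086 on the brightest; the cause was not tested.

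With 1 array left out, 12 to 15 members passed, 11 to 12 heavy chain and 0 to 2 B2M probe sets fell, and 0 to 1 of the TAP group rose. Over all probe sets, 7885 to 10134 passed in these fits, beside 10637 with every array kept. Differences from HLA-B then ranged from -0.097 to -0.038 for HLA-C, 0.32 to 0.44 for HLA-E, 0.17 to 0.25 for HLA-F, 0.86 to 1.11 for TAP1, 1.13 to 1.22 for TAP2 and 0.81 to 0.94 for TAPBP, and these 6 passed without resistant array 4 (exact permutation test, adjusted p = 0.0476). There too the adjusted p was below 0.05 only because more of the 10 pairs reached the smallest exact p. All 7 HLA-B and HLA-C probe sets fell in each alternative that kept them, except HLA-B 208729_x_at under the block (adjusted p = 0.0513). Dim signals limit the precision most for TAP2 208428_at, whose standard error of 0.77 was larger than the change of HLA-B 209140_x_at, -0.72.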
